A study of Homo sapiens with 3 samples.

Results

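Metallothioneins are small cysteine-rich proteins of the cytosol that bind zinc and copper and can also take up toxic metals such as cadmium. Their genes are induced when free zinc rises, because zinc activates the transcription factor MTF1, which binds metal response elements in their promoters. In the intestine they buffer absorbed zinc and copper, and glucocorticoids and oxidative stress are also known inducers. The 7 metallothionein genes described here are MT1E, MT1F, MT1G, MT1H, MT1M, MT1X and MT2A, which all lie in a cluster on chromosome 16. They were chosen by gene symbol from 21610 genes that could be named on the arrays, and 9 probes measured them, with 2 probes each for MT1E and MT1X. The copies of this family are nearly identical to each other, so a probe named for 1 gene may also bind the RNA of another, which was not tested.

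HT29, an established human colon adenocarcinoma cell line, was cultured on tissue culture polystyrene plates (TCP), on a chitosan membrane (CS) or on a chitosan membrane grafted with hyaluronan (CSHA). Chitosan is a polysaccharide obtained from chitin, and hyaluronan is a polysaccharide of the extracellular matrix. The question behind the comparison was how these substrates alter gene expression in the same cancer cells. Each substrate had 1 single-colour array, and the 3 arrays lay on 1 slide, so the differences were not checked by replicates and come without p-values.

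The 75th percentiles of the processed signals were 354 (TCP), 423 (CS) and 337 (CSHA), and between 48.6% and 51.1% of the probes were well above background. No spot was saturated, and none of the spots of the 9 metallothionein probes was flagged as an outlier. Of 8 colon epithelial markers, 8 were well above background on all arrays, against 0 of 7 stromal markers and 3 of 3 endothelial markers. Of the stromal markers, 2 were well above background on at least 1 array. The immune markers CD14, CD3E and PTPRC went different ways. On CSHA relative to TCP, CD14 was at 1.04 on the log2 scale, CD3E at -1.75 and PTPRC at 0.047 by its brightest probe. CD3E had a signal of 122 on TCP and was not well above background on CS. The endothelial markers had signals between 33.0 and 56.7. Their part in the results was not tested. In cultures measured as bulk RNA, fewer expressing cells and less RNA per cell cannot be told apart.

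The promoters of 3 of the 7 genes, MT1H, MT1X and MT2A, were matched in the RefSeq table of build GRCh38.p14. They are shown because they carry the element through which metals act on these genes. Capitals mark each match to the core of the metal response element, TGCACNC or TGCGCNC, read on both strands. Each sequence holds the 250 bases before the start of the gene, on the plus strand, at chr16:56608334-56608583 for MT2A, chr16:56682220-56682469 for MT1X and chr16:56669564-56669813 for MT1H.
MT2A: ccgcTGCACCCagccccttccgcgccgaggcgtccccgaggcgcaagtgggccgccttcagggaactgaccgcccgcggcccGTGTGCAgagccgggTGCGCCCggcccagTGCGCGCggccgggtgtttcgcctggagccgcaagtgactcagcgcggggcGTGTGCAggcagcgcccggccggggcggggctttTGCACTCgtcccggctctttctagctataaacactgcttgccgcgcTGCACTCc
MT1X: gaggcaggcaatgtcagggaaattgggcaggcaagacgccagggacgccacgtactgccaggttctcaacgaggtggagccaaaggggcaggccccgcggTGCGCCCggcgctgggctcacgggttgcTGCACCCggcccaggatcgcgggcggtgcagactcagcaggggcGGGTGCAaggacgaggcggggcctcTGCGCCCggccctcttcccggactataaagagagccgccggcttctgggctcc
MT1H: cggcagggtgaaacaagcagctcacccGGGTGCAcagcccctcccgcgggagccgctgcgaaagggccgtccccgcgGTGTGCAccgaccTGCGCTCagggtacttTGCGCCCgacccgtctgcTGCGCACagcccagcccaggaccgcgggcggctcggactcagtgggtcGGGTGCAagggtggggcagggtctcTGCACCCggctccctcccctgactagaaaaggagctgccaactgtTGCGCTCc
The MT2A window held 7 matches, the MT1X window 4 and the MT1H window 8, some of them on the opposite strand. Of 35116 promoter windows of this length, 24.8% held at least 1 match, 0.370% held at least 4, 0.0313% at least 7 and 0.0171% at least 8. The windows of MT2A and MT1X also held the letters TATAAA, which 6.80% of all windows held on the gene's own strand, and that of MT1H did not. A match describes these letters and is not a measured binding site.

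MT2A, the main metallothionein of many human tissues, was the member with the largest difference from TCP on CSHA. Its processed signal was 6741 (TCP), 8897 (CS) and 10087 (CSHA). After the shift to the 75th percentile of each array, the CS value of MT2A exceeded that of TCP by 0.14 and the CSHA value by 0.65 on the log2 scale, which is 1.11-fold and 1.57-fold. Between the membranes, it was higher on CSHA than on CS by 0.51. For probes as bright as this one, the spread expected among spots of an array gave an SD of 0.055 to 0.061 for a difference, and the error that the scanner software gives for single spots, about 10% of the signal, corresponded to 0.20. The differences that involve CSHA were larger than both, and the difference between CS and TCP was larger than the first and smaller than the second. Neither error includes differences between cultures. Each metallothionein probe had 1 spot per array, so the spread among spots was taken from other probes. Of all genes with a value, 9.13% had a difference between CSHA and TCP at least as high as that of MT2A, and 33.6% did so between CS and TCP.

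MT1F, another cluster member that binds zinc, was dim but measured on every array. Its signal was 96.4 (TCP), 114 (CS) and 123 (CSHA). The normalized difference from TCP was -0.0085 on CS and 0.42 on CSHA, beside a spread among spots of 0.16 and 0.17 and a scanner error of 0.23 for each. MT1F was thus above TCP on CSHA by more than these errors, and on CS the difference lay within them. Its difference between CSHA and CS was 0.43. A difference between CSHA and TCP at least as high as that of MT1F was found in 20.4% of all genes with a value.

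MT1E and MT1M, both isoforms of the MT1 group, had nearly equal normalized signals on the 3 substrates. The brighter MT1E probe had a signal of 17366 (TCP), 19653 (CS) and 16301 (CSHA), and the dimmer one 11992, 13340.0 and 11510.2. The signal of MT1M was 3903 (TCP), 4266 (CS) and 3677 (CSHA). These values were highest on CS before the shift, as was the 75th percentile of that array. After the shift, the brighter MT1E probe gave -0.077 for CS and -0.021 for CSHA relative to TCP, and the dimmer one -0.10 and 0.011. MT1M was at -0.13 on CS and -0.016 on CSHA. All of these differences were smaller than the scanner error of 0.20, and those on CSHA were also within the spread among spots.

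MT1X was the member whose probes disagreed. By its brighter probe, MT1X had a signal of 2459 (TCP), 2436 (CS) and 1767 (CSHA), and by its dimmer probe 190.3, 192 and 257. Relative to TCP, the probes were lower on CS by similar amounts, at -0.27 and -0.24. On CSHA the brighter probe was at -0.41 and the dimmer one at 0.50, a gap of 0.91. Each of these values on CSHA was larger than the scanner error, so MT1X has no settled direction there. Among 3500 genes with 2 or more probes measured on all arrays, the gap between the 2 brightest had a median of 0.32 for CSHA against TCP, and 12.3% of the genes had a gap at least as large as that of MT1X. The probes of MT1E differed by 0.032 in the same comparison. The brighter MT1X probe lay in the first row of its array, where 83 other measured spots had a median difference of 0.044 between CSHA and TCP, with quartiles of -0.25 and 0.21. The part of the position was not tested.

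MT1G and MT1H were not well above background on any array. The signal of MT1G was 5.21 (TCP), 8.24 (CS) and 12.6 (CSHA), and that of MT1H was 4.78, 6.37 and 7.23. The dimmest probes counted as well above background had signals of 24.1 (TCP), 21.1 (CS) and 22.6 (CSHA), so no difference can be given for these genes. The scanner error was 100% of the signal for MT1G on TCP and 40.5% on CSHA.

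**Figure D1:**
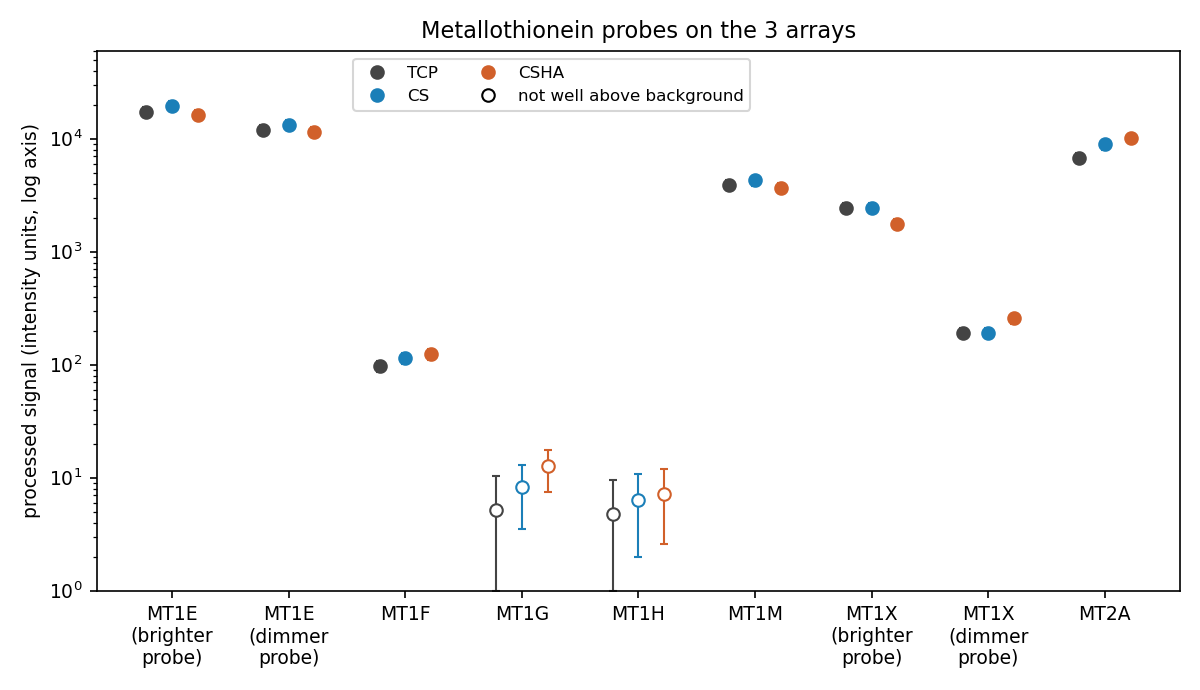
Processed signal (intensity units, log axis) of the 9 metallothionein probes on the TCP, CS and CSHA arrays, 1 array each. Bars are the error that the scanner software gives for each spot, cut at the lower end of the axis for MT1G and MT1H on TCP and smaller than the points for bright probes, and open points are not well above background. The signals are drawn before the shift between arrays. MT2A goes from 6741 on TCP to 10087 on CSHA, while MT1E and MT1M stay nearly level and the MT1X probes move apart on CSHA. On CS the signal of MT2A is 8897, and after the shift it exceeds TCP by 0.14, which is within the scanner error of 0.20.

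By sign, the measured metallothioneins lay on both sides of TCP. On CS, only MT1X differed from TCP by more than the scanner error, and it was lower by both probes. On CSHA, MT2A and MT1F were higher by more than that error. MT1E and MT1M were within it there, and the MT1X probes disagreed. The median difference from TCP of the 5 measured members, by the brightest probe of each gene, was -0.077 on CS and -0.016 on CSHA, and between CSHA and CS it was 0.11. With MT1X by its dimmer probe, the medians that involve CSHA were 0.42 and 0.43. The median over all genes was 0.043, 0.13 and 0.068 in these comparisons. On CS, 1 of the 5 members was higher than on TCP and 4 were lower. On CSHA, 2 were higher and 3 lower with the brighter MT1X probe, and 3 were higher and 2 lower with the dimmer one. Against CS, 4 of 5 were higher on CSHA with the brighter MT1X probe and 5 of 5 with the dimmer one. In that comparison 58.5% of all genes had a positive difference. Relative to the median over all genes there, MT1E was at -0.013 and MT1M at 0.043, both within the spread among spots of 0.058. The background shares for CS and CSHA against TCP were 56.8% and 61.7%. None of the 5 reached a 2-fold difference in any comparison. Of 14462 genes compared between CS and TCP, 1.37% were higher on CS by 2-fold or more, and 1.92% were lower by as much. For CSHA and TCP these shares were 3.02% and 3.98% of 14622 genes, and for CSHA and CS they were 2.27% and 2.15% of 14598. With such shares, a count of 0 among 5 genes lies near the background. Within the group, the differences from TCP lay between -0.27 and 0.14 on CS, with MT1X lowest by either probe and MT2A highest. On CSHA they lay between -0.41 and 0.65 with MT2A highest, and the lowest was MT1X by its brighter probe, or MT1E at -0.021 where the dimmer MT1X probe was used.

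**Figure D2:**
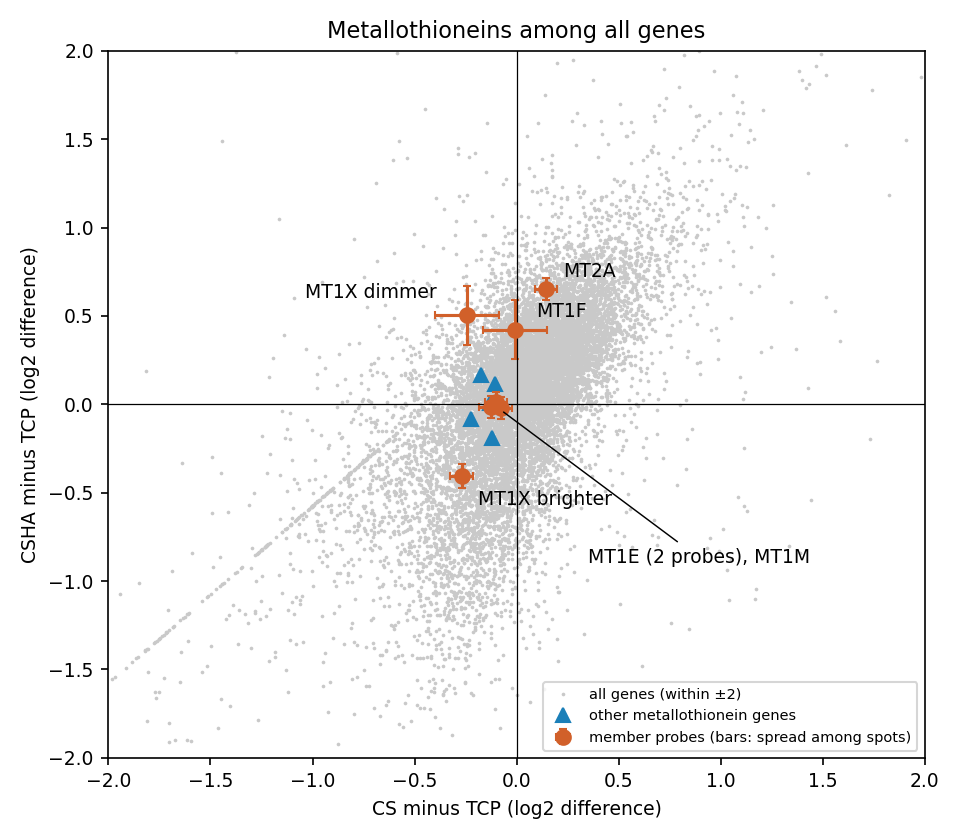
Log2 difference from TCP on CS (horizontal) and CSHA (vertical) for all genes with both values within the axes (grey), the probes of the measured members (circles, bars show the expected SD among spots) and the other metallothionein genes with both values (triangles). The pseudogene MT1IP, at least 1.72 higher on CSHA, has no value on CS and is not drawn. MT1E and MT1M lie together near 0, MT2A stands at 0.14 and 0.65, and the MT1X probes lie apart at 0.50 and -0.41 on the vertical axis. The grey diagonal line consists of genes that were dim on both membranes and have only a bound.

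Of the 13 further metallothionein genes and pseudogenes looked up, 8 had a probe and 5 were well above background on all arrays. MT1A, MT1B, MT1HL1 and the pseudogene MT1L, together with MT1E and MT1M, gave 7 bright probes with signals between 3677 and 19653. The differences of these 7 probes lay between -0.22 and -0.077 on CS and between -0.19 and 0.11 on CSHA. Whether they bind the RNA of 1 or of several copies was not tested. MT3, first described in brain as a growth inhibitory factor, had a signal of 1012 (TCP), 1072 (CS) and 1082 (CSHA), and was at -0.17 on CS and 0.17 on CSHA. MT4 and MT1DP were not well above background on any array. MT1IP, a transcribed pseudogene between MT1H and MT1X, had a signal of 28.3 on TCP, where it was not well above background, 30.6 on CS and 89.1 on CSHA. It was at least 3.30-fold higher on CSHA than on TCP and higher by 1.87 on the log2 scale on CSHA than on CS. Like every metallothionein probe, that of MT1IP rests on 1 spot per array. No other metallothionein gene with a value reached 2-fold. Over all 12 metallothionein probes measured on every array, 11 were lower on CS than on TCP and 1, MT2A, was higher. Of the lower ones, only both MT1X probes and that of MT1L went beyond the scanner error. On CSHA 7 were higher and 5 lower than on TCP. The background share of positive differences was 56.8% for CS and 61.7% for CSHA. The 12 probes stand for 10 genes and may bind the same RNA, so they cannot be counted as independent.

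MTF1, the zinc sensor that acts on these genes, had a signal of 909 (TCP), 1054 (CS) and 784 (CSHA). Its difference from TCP was -0.042 on CS and -0.14 on CSHA, within the scanner error. SLC30A1, which exports zinc and is itself a target of MTF1, was at 0.047 on CS and 0.36 on CSHA. SLC39A10, a zinc importer, was above TCP by 0.47 on CS and 0.27 on CSHA. The list of 6 genes for MTF1 and the metal response had medians of 0.064 (CS) and 0.26 (CSHA). By their brightest probes, 0 of its 6 genes reached 2-fold in either direction on either membrane. The probes of SELENOW disagreed on CSHA, where the brightest gave 0.24 and the dimmer -0.77. Whether the list reflects the activity of MTF1 was not tested. Among 10 zinc exporters of the SLC30 family, 6 were measured. Of these, 4 were higher on CS and 6 on CSHA, with a median of 0.33 on CSHA and 0 at 2-fold. The highest on CSHA was SLC30A7, where its probes gave 0.54 (the brightest) and 0.17.

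Among 14 zinc importers of the SLC39 family, 12 were measured, of which 6 were higher on CS and 10 on CSHA than on TCP. The median was 0.026 on CS and 0.25 on CSHA. SLC39A5, a zinc importer of the intestine and pancreas, had a signal of 149.8 (TCP), 505 (CS) and 694 (CSHA). It exceeded TCP by 1.498 on CS and 2.28 on CSHA, and it was the only importer at least 2-fold apart from TCP. SLC39A4, the importer that takes up dietary zinc, was above TCP by 0.23 on CS and 0.51 on CSHA. The lowest importer on CS was SLC39A7, which releases zinc from the endoplasmic reticulum, at -0.72, and on CSHA it was SLC39A1, at -0.88. Among 11 genes of copper handling, all measured, 9 exceeded TCP on CS and 8 on CSHA, with medians of 0.13 and 0.11. CCS, which delivers copper to superoxide dismutase, was the lowest of them both times, with -0.070 on CS and -1.05 on CSHA, and by the brightest probes the only one of these genes at 2-fold. The probes of the copper importer SLC31A1 disagreed on CSHA, where the brightest gave 0.11 and the dimmer -1.03. ATP7B, a copper exporter, was highest on CSHA at 0.77, and SOD1, the target of CCS, was at 0.18 and 0.29. Beside these lists, 56.8% of all genes had a positive difference on CS and 61.7% on CSHA.

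**Figure D3:**
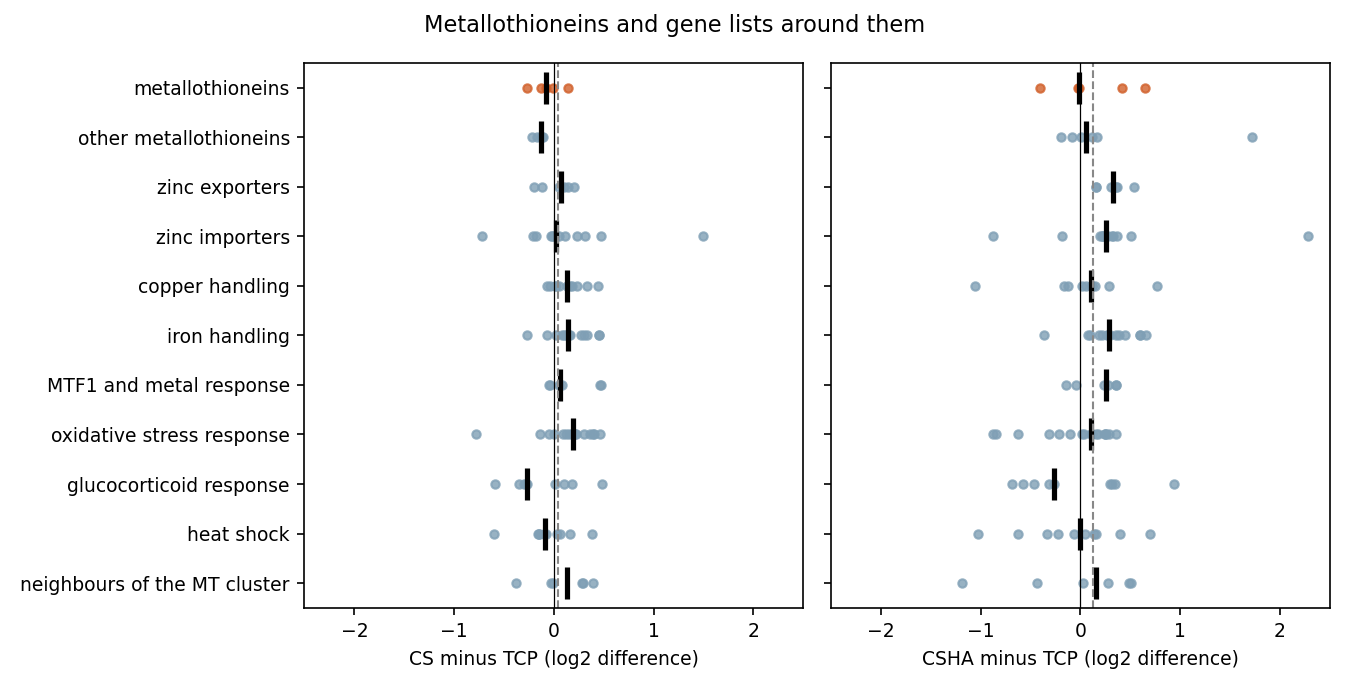
Log2 difference from TCP on CS (left) and CSHA (right) for the measured metallothioneins (first row) and the genes of each list around them, 1 point per gene, with the list's median as a black bar and the median of all genes as a dashed line. The metallothioneins spread around 0 from -0.41 to 0.65 on CSHA, and the isolated points at 1.498 and 2.28 among the zinc importers are SLC39A5.

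By the Euclidean distance between the pairs of differences from TCP on CS and CSHA, the genes nearest to the median of the 5 measured members were VGF, UQCRH, TBCD, XIAP and PRRG1, at distances of 0.0057 to 0.0096 on the log2 scale among 13484 genes measured on all arrays. These pairs come from 3 arrays and share TCP, so the list describes the values and nothing else. The list also rests on the brighter MT1X probe. With the dimmer one, the median of the members on CSHA was 0.42 in place of -0.016.

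Of 11 other settings of the processing, 4 leave MT2A as it is, since it has 1 bright probe. In the other 7, MT2A was higher on CSHA than on TCP by 0.57 to 1.09, and over all 11 it exceeded the median of all genes by 0.47 to 0.64. MT1F was higher by 0.31 to 0.86, or by 0.21 to 0.41 above all genes. The low end of the second range was within the scanner error of 0.23 for this probe. The values at the upper end of the direct differences came from scaling to spike-in probes, where the median difference over all genes for CSHA was 0.57. The median of the members on CSHA, which lay near 0, was above 0 in 6 of the 11 alternatives and ranged from -0.075 to 0.42. In 1 of these 6, with no filter on dim probes, the median also took in MT1G and MT1H. The values of the 5 measured members did not change there. MT1E and MT1M lay below the median of all genes on CSHA in each alternative, by at most 0.17 and 0.15. With spike-in scaling, MT1X by its brighter probe was at 0.029 on CSHA.

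**Figure D4:**
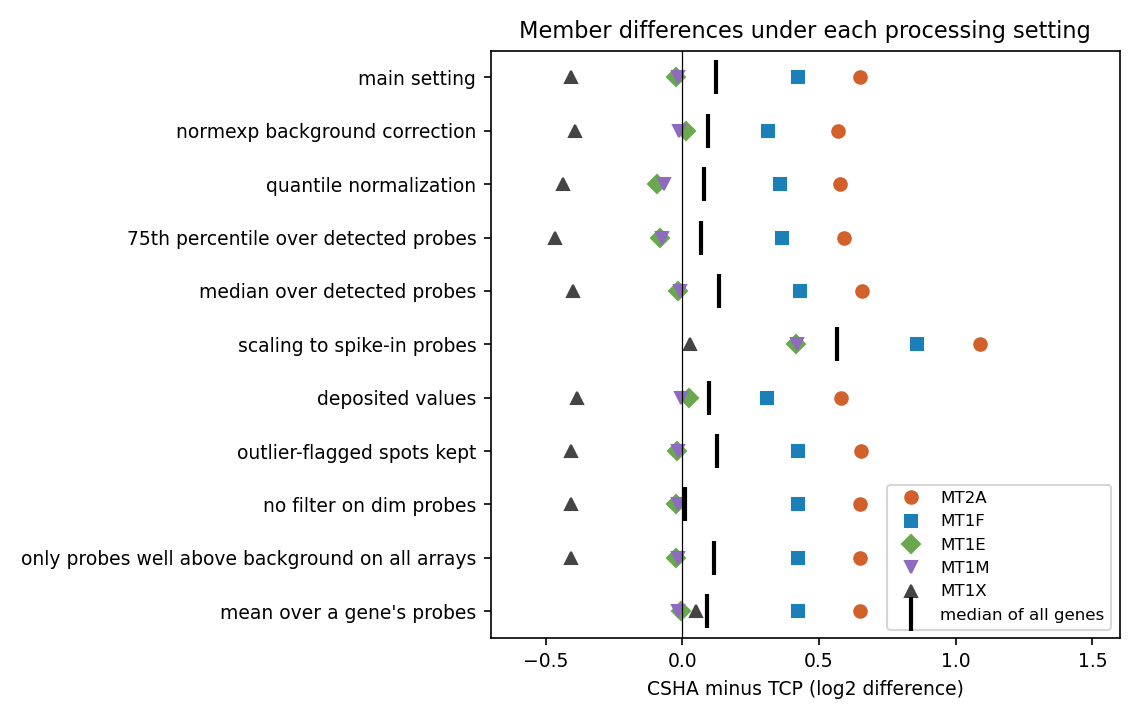
Log2 difference between CSHA and TCP of the 5 measured members under the main setting and 10 alternatives (1 line each), with the median of all genes as a black bar. MT2A lies to the right of the black bar on each line by at least 0.47, and scaling to spike-in probes moves all points and the bar to the right together.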

How the data were processed

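Total RNA of HT29 cells from TCP, CS and CSHA was hybridized to 1 Agilent array each. The deposited scanner files give spot intensity values (processed signal, its error, median signal and background) as written by Feature Extraction 10.7.3.1, without normalization between arrays. The deposited series table holds log2 values, whose differences between arrays equalled those of the log2 median signal plus a constant within 1e-07 at 62976 spots. It was used as an alternative, and its absolute scale is unknown. No column was without a sample.

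From these, log2 of the processed signal (floor 1, reached by 0 spots) was taken minus log2 of the array's 75th percentile over 50599 probes. The methods state this for the raw signal. Spots of a probe were averaged without control spots and flagged outliers. Accessions of 30000 probes matched a RefSeq symbol (GRCh38.p14), and 20599 did not and were not used. The brightest probe stood for each gene. A gene was compared where at least 1 of the 2 arrays was well above background, with a bound where the other was not. The spread among spots was taken from probes with at least 8 spots. With 1 array per substrate there was no test, and counts used 2-fold.

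The members and lists were chosen with earlier results of these data known. The genes named are the members, the other metallothioneins, a fixed choice from the lists, their highest and lowest genes, and the 5 nearest patterns, and not every gene so selected is reported. Simulated arrays were used to test the calculation. A marker gene of the lists is not reported here. In all, 11 alternatives were computed, besides thresholds of 1.5-fold and 3-fold, of which 1, the dimmer MT1X probe, was added after seeing the data. Normexp (offset 50) used the median spot signal. Calculations ran in Python 3.11.15 with pandas 2.3.3 and numpy 2.4.6, and normexp in limma 3.58.1 under R 4.3.3.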

Additional observations from a re-analysis of the deposited data

How the results depend on the processing

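The number of arrays, 1 per substrate, limits the precision, and the signal over background limits MT1G and MT1H, which have a value only without a filter on dim probes. No paired analysis was possible because each substrate has 1 array. The median of the members on CS was below 0 in the 11 alternatives and was -0.0085 with no filter on dim probes. With no filter, each median also took in MT1G and MT1H, which were not well above background. On CSHA the median was 0.42 with no filter, 0.42 with spike-in scaling, 0.42 with the dimmer MT1X probe and 0.049 with each gene's probes averaged. Between CSHA and CS it was 0.43, 0.49, 0.43 and 0.30 in these settings. For CSHA against TCP, 1 member was at least 2-fold higher with no filter (MT1G), 1 with spike-in scaling (MT2A) and 1 at a threshold of 1.5-fold (MT2A). MT1X turned its sign on CSHA, to 0.029 with spike-in scaling, 0.049 with the mean of its probes and 0.50 with its dimmer probe, and against CS to 0.24, 0.30 and 0.75. Spike-in scaling moves all probes of an array together, and its value for MT1X came from the brighter probe. Of 165 values of single members under the alternatives, 51 equalled the main value because the setting does not touch that gene. Of the other 114, 96 stayed within 1 SD of the spread among spots around the main value, 12 moved further and 6, all of MT1X, turned beyond it. Differences near 0 also crossed 0, and on CSHA spike-in scaling brought MT1E to 0.41 and MT1M to 0.42. The median of the members on CSHA turned its sign in 6 of the 11 alternatives, MT1E in 3 and MT1M in 1 on CSHA, and MT1F in 2 on CS.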

Other observations

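Several groups of genes that respond to the same kinds of signal as metallothioneins, or that lie beside them, were also measured. As a background for their counts, 56.8% of all genes exceeded TCP on CS and 61.7% on CSHA. The medians over all genes were 0.043 and 0.13. Whether any group differs from this background was not tested. Among 14 iron handling genes, 12 exceeded TCP on CS and 13 on CSHA, with medians of 0.14 and 0.29, and 0 reached 2-fold by their brightest probe. By these probes, the highest was SLC40A1, the iron exporter ferroportin, at 0.45 on CS and 0.66 on CSHA. The lowest was HFE at -0.27 and -0.37. The probes of STEAP3 disagreed, with 0.097 on CS and 0.19 on CSHA by the brightest and -0.91 and -1.76 by the dimmer. Among 17 genes of the oxidative stress response, 14 exceeded TCP on CS and 11 on CSHA, with medians of 0.19 and 0.11. HMOX1, which degrades heme, was at 0.30 and 0.18. GCLC and GCLM, the subunits of the enzyme that limits glutathione synthesis, went opposite ways, with GCLC at 0.47 on CS and 0.36 on CSHA and GCLM at -0.78 and -0.63.

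The 9 measured genes of the glucocorticoid response had a median of -0.27 (CS) and -0.26 (CSHA). On each membrane, 4 of them were higher and 5 lower than on TCP. DUSP1, a phosphatase that acts on MAP kinases, was highest at 0.48 and 0.94. TSC22D3, which encodes GILZ, was at 0.10 and 0.35, FKBP5 at 0.18 and 0.29 and SGK1 at -0.59 and -0.26. The lowest was SGK1 on CS and CEBPD, at -0.68, on CSHA. None of the 3 probes of NR3C1, the glucocorticoid receptor, was well above background on any array. The 10 heat shock genes had medians of -0.091 and -0.0041, with HSPA1B highest, at 0.38 and 0.70, and the co-chaperone BAG3 lowest by the brightest probes, at -0.60 and -1.02. The probes of the small heat shock gene HSPB1 disagreed on CSHA, where the brightest gave 0.14, the next 0.22 and the dimmest -1.43. HSPA1A and HSPA1B are near-identical, so their probes may bind both.

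Of 8 genes beside the metallothionein cluster, 6 were measured, 3 of them higher on CS and 4 on CSHA than on TCP by their brightest probes. The probes of NUDT21 disagreed, with 0.28 on each membrane by the brightest and -0.30 on CS and -1.11 on CSHA by the other. OGFOD1 was at -0.033 and 0.029, BBS2 was higher by 0.39 and 0.51, and NUP93, a nucleoporin, was at -0.38 on CS and -1.19 on CSHA.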
